A study of Homo sapiens with 2 samples.

Results

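The genes described here belong to signalling by bone morphogenetic proteins (BMPs) in Hep3B cells, a long-established human liver cancer line, together with the BMP antagonist CER1 and the iron hormone hepcidin. The 10 members were the ligands BMP2, BMP4 and BMP6, the secreted antagonist CER1, the inhibitory proteins SMAD6 and SMAD7, the transcriptional inhibitors ID1, ID2 and ID3, and HAMP, the gene of hepcidin. They were chosen with earlier results of these data known and found by symbol among 33616 genes of the array. Each was read from the transcript cluster (the array's unit of summary for a transcript) with the highest mean over both arrays. All 10 had a cluster with a single gene symbol, and 9 of them passed a level filter of 4.78, the median over all genes of each gene's higher value. BMP6 lay under it.

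Total RNA was hybridised to an Affymetrix whole-transcript array, with 1 array for Hep3B cells in which SOX4, a developmental transcription factor of the SOX family, had been knocked out with CRISPR/Cas9, and 1 array for the parental Hep3B cells, labelled wildtype. Both lines were grown in the same base medium and taken at 80% confluence, and puromycin, at 1 µg/ml, was added to the knockout line only. Genotype, selection and array therefore cannot be told apart, and the sources used here do not say whether the knockout line came from 1 clone. A design of 1 array per genotype allows no test and no error, and the precision of a value is limited by the number of arrays. Levels are given on the log2 scale of the deposit, and a difference is the knockout level minus the parental one. Levels over 16, which a 16-bit scanner cannot give, occurred in 870 clusters of the knockout array and 838 of the parental array, so the scale may have been altered before deposit and folds hold on that scale. Each cluster has probes of its own, so which of a pair of genes has the higher level is not read from these values, and a gene's mean level served only for the level filter and to pick genes of like brightness beside which a difference is set.

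The targeted gene, SOX4, stood at 12.44 in knockout cells and 13.14 in parental cells, a difference of -0.70, and transcript probes do not show whether the protein was lost. Of 12 measured hepatocyte and Hep3B markers, all 12 lay above the level filter in these arrays, including albumin (ALB) at 18.84 in knockout cells and 18.87 in parental cells, and 2 were at least 2-fold lower, the fetal serum protein gene AFP and the apolipoprotein gene APOA1. Of the 12, 3 stood above 0 and 9 below, with a median difference of -0.23. Their summed log2 levels were 176.7 in knockout cells and 185.3 in parental cells, but 166.9 in knockout cells and 169.8 in parental cells without AFP. None of 9 endothelial markers passed the filter. Of 9 fibroblast and stellate markers 4 passed it, 2 stood above 0 and 7 below, and the median difference was -0.16. The matrix proteoglycan gene LUM, 4.79 higher, was the one past 2-fold, and the sums were 50.4 in knockout cells and 47.5 in parental cells with it, but 37.7 in knockout cells and 39.6 in parental cells without it. Of 8 leukocyte markers 3 passed the filter, 5 stood above 0 with a median of 0.30, and 2 were at least 2-fold higher, LYZ and CD68. The pan-leukocyte marker PTPRC lay under the filter in both arrays. The sums were 50.8 in knockout cells and 47.1 in parental cells, but 39 in knockout cells and 37.5 in parental cells without LYZ. The part of these markers in the results below was not tested, and fewer cells of a type and less RNA per cell cannot be told apart in bulk RNA.

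BMPs are secreted ligands of the TGF-beta superfamily. They bind paired type I and type II receptor kinases, which phosphorylate SMAD1, SMAD5 and SMAD9; these join SMAD4 in the nucleus and switch on targets such as the ID genes and the feedback inhibitors SMAD6 and SMAD7. In hepatocytes the same route, with BMP6 and BMP2 as ligands made largely by liver endothelium, hemojuvelin (HJV) as co-receptor and HFE and TFR2 as sensors of transferrin iron, sets the transcription of HAMP, and interleukin 6 acts on HAMP through STAT3. Hepcidin then lowers iron export by binding ferroportin. CER1 is best known from vertebrate embryos, where it binds and blocks BMP and Nodal ligands.

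Of the 10 members, 2 (BMP4 and BMP2) were higher by 2-fold or more in knockout cells and 3 (CER1, SMAD6 and HAMP) lower by 2-fold or more, where 2-fold is 1 on the log2 scale. The same thresholds were passed upwards by 6.5% and downwards by 3.64% of the 16808 genes over the level filter, 10.1% in all, and by 8.26% and 4.27% of the 11231 protein-coding genes among them, 12.5% in all. Since the members, and the gene lists below, were chosen with earlier results of these data known, setting their counts beside such shares is no test of the set. The members' median difference was -0.12, beside 0.00 over all genes, and 5 members lay above 0 and 5 below. They thus did not differ in one direction. SMAD6, SMAD7, the ID genes and HAMP are all used as readouts of BMP signalling in the literature, and of these 6 genes ID1 and ID3 stood above the parental value and the other 4 below it. Some of these signs rest on small differences. ID1 at 0.28 and ID2 at -0.25 lay within 0.30, the SD of differences across genes under the filter. They also lay within the SD among genes of like level, 0.53 for ID1 and 0.36 for ID2. These are spreads across genes and not errors of a single gene. A second SMAD7 cluster was at -0.02.

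**Figure D1:**
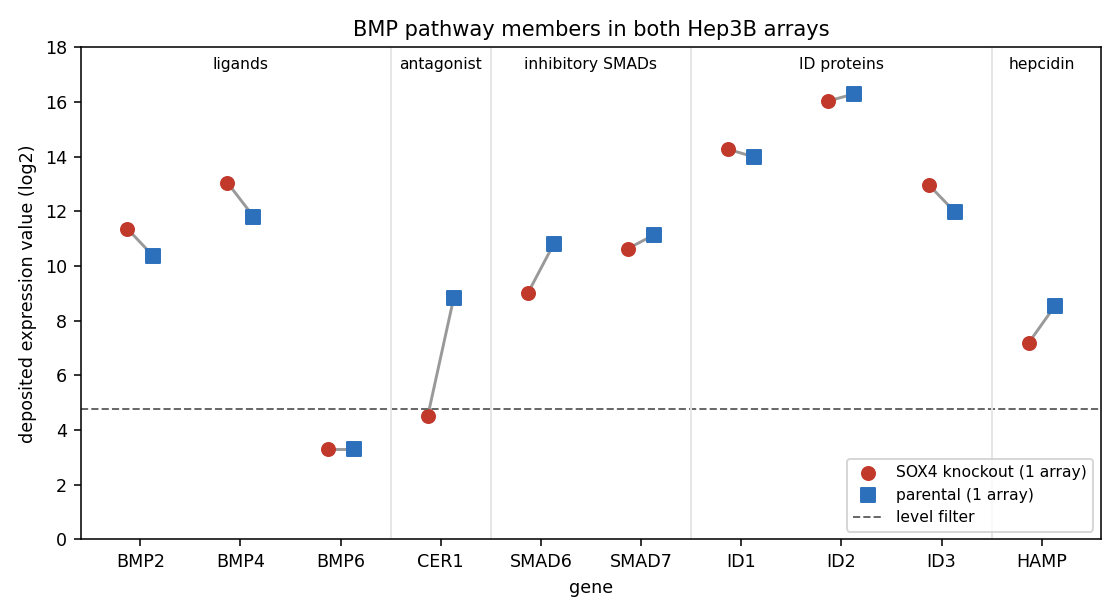
Deposited log2 values (vertical axis) of the 10 members by role, with the SOX4 knockout array as circles at left of each pair and the parental array as squares at right; each point is 1 array, and the dashed line is the level filter of 4.78. CER1 has the steepest line, at 4.51 in knockout cells and 8.84 in parental cells, while the lines of BMP2, BMP4 and ID3 run the other way.

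The ligands BMP2 and BMP4 were higher in the knockout array. BMP4, which acts in liver specification in the embryo, stood at 13.05 in knockout cells and 11.81 in parental cells, which is 1.24 or 2.36-fold higher. Among the 1082 genes whose mean lay within 0.5 of its own, 4.07% were higher by as much. BMP2, which in mouse liver endothelium is needed for normal hepcidin levels, stood at 11.37 in knockout cells and 10.36 in parental cells, a difference of 1.02 or 2.02-fold. This value lies just past 2-fold, and 6.86% of 1385 genes of like level were higher by as much. BMP6, the main iron-responsive ligand in mouse liver, stood at 3.31 in both arrays with a difference of 0.01. It was under the level filter, and low values do not show that a transcript is absent, since RPL4, a ribosomal protein gene that all cells use, stood at 3.18 in knockout cells and 3.28 in parental cells.

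Other ligands of the superfamily were counted beside them. Of 17 further ligand genes measured, 7 lay above the filter, 3 were higher and 1 was lower by 2-fold or more, beside 3.36% higher and 1.94% lower among all 33616 genes without a filter. The higher genes included the chains of activin A and activin B. INHBA, which codes for the beta A chain, stood at 9.86 in knockout cells and 7.22 in parental cells, 6.24-fold apart, and INHBB, of the beta B chain, at 12.51 in knockout cells and 11.02 in parental cells. Activin B can raise hepcidin in mice and in cultured human liver cells. BMP8A was 1.19 higher with a parental value of 3.83, under the filter. GDF11 was lower, at 3.95 in knockout cells and 5.08 in parental cells. The median difference of the 17 genes was -0.02, so the higher ligands stood among many dim genes with small differences.

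CER1 had the largest difference of the members. It stood at 4.51 in knockout cells, under the level filter, and at 8.84 in parental cells, a difference of -4.33 or 20.1-fold lower. It ranked 7 from the lowest among the 16808 genes over the filter, and 1 of 1910 genes of like level was lower by as much. Since the knockout value lies near the dim end of the scale, the fold depends on signal that was not shown to exceed background.

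None of the other antagonists came near this size. Of 15 further genes on the list of secreted antagonists and the co-receptor protease TMPRSS6, 8 lay above the filter, 1 was higher and 0 were lower by 2-fold or more, beside 3.36% higher and 1.94% lower of all genes, and the median was -0.04. FSTL3, which binds activins and some BMPs, was 1.22 higher. FST, the follistatin gene, stood at 7.50 in knockout cells and 6.78 in parental cells. SOSTDC1, a secreted antagonist of BMP and Wnt signals, stood at 5.72 in knockout cells and 6.58 in parental cells, GREM1 at 4.23 in knockout cells and 4.96 in parental cells, and the membrane-anchored CRIM1 at 11.60 in knockout cells and 11.64 in parental cells. Noggin (NOG) and chordin (CHRD) lay under the filter in both arrays.

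CER1 lies on chromosome 9 among genes that were also lower. Of the 10 nearest measured protein-coding genes on each side, 20 in all, 17 stood below 0 and 6 were at least 2-fold lower, with a median of -0.57. The 11 that passed the filter did so in both arrays, 10 of them stood below 0, and their median was -1.30. ZDHHC21, a palmitoyltransferase gene and the nearest measured gene on one side, was at -2.18, the ubiquitin ligase gene UHRF2 at -1.92 and the glycine cleavage gene GLDC at -1.62. On the other side SNAPC3 was at -1.47, CNTLN at -1.33 and PSIP1, a chromatin-binding coactivator gene, at -1.30. NFIB, a transcription factor gene between MPDZ and ZDHHC21, was the exception at 0.30. The difference of CER1 was lower than that of each of its 20 neighbours and lay 3.03 below the median of the 11. The knockout value of CER1, 4.51, lies under the filter, unlike those of the 11, so the size of this gap is uncertain. Expression values alone do not separate a change of this chromosome stretch from a change of CER1, and the part of the one in the other was not tested.

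**Figure D2:**
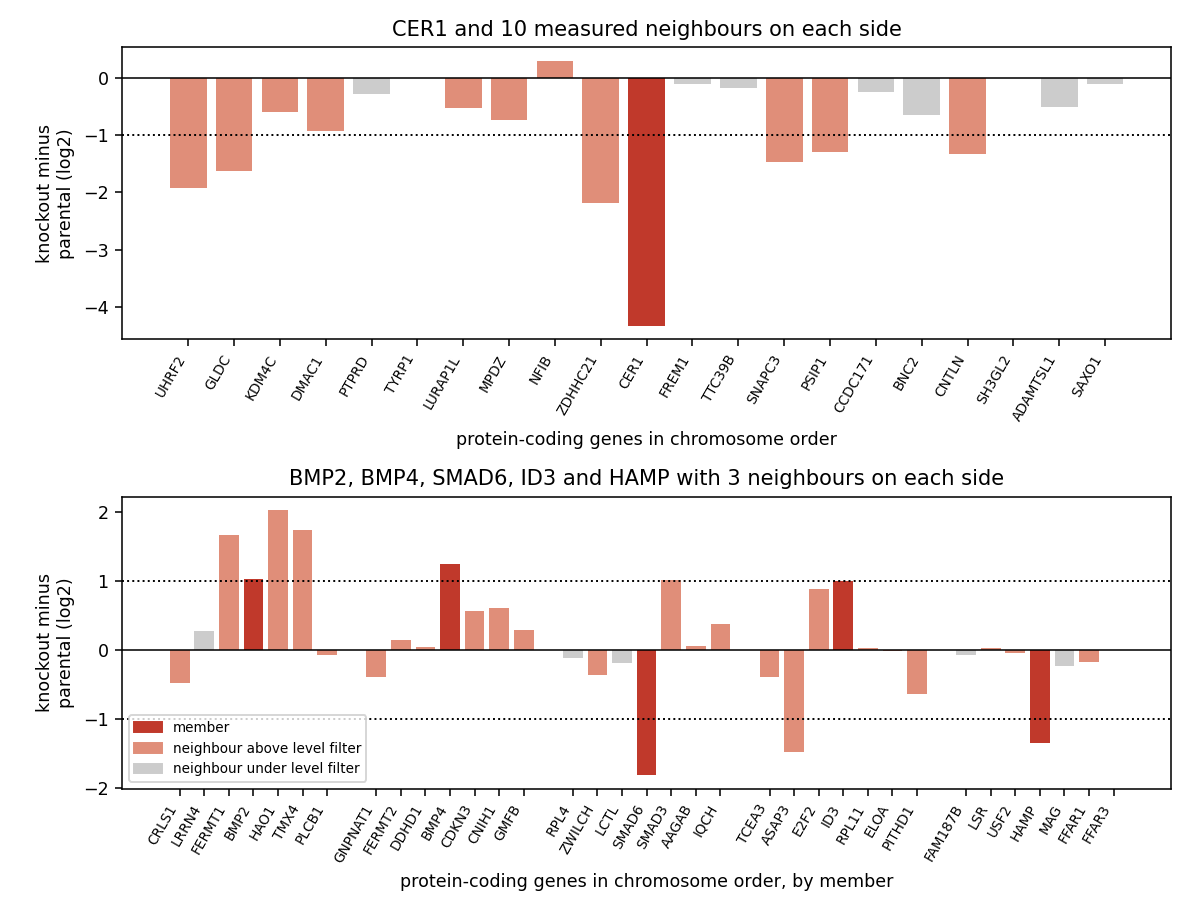
Differences, knockout minus parental on the log2 scale (vertical axes), for CER1 and 10 measured protein-coding neighbours on each side (top) and for BMP2, BMP4, SMAD6, ID3 and HAMP with 3 neighbours on each side (bottom); dark bars are members, light red bars are neighbours above the level filter, grey bars those under it, and dotted lines mark 2-fold. Of the 11 neighbours of CER1 above the filter 10 lie below 0, those of HAMP lie near 0, and TMX4 beside BMP2 stands at 1.74; the bars of FERMT1 and HAO1 beside BMP2 rest on parental values under the filter.

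The other members were set beside their 3 nearest measured genes on each side. On chromosome 20, 5 of the 6 neighbours of BMP2 passed the level filter, and 3 of the 6 were at least 2-fold higher and 0 lower. The median of the 5 was 1.66, beside 1.02 for BMP2, and the part of this stretch in the BMP2 difference was not tested. Of the 3 neighbours that passed the filter in both arrays, TMX4, a thioredoxin-related gene, was 1.74 higher. CRLS1 was at -0.48 and PLCB1 at -0.07, so these 3 did not differ in one direction. FERMT1, an integrin activator gene, stood at 5.12 in knockout cells and 3.45 in parental cells, and HAO1, a liver peroxisomal oxidase gene, at 5.09 in knockout cells and 3.07 in parental cells. Both parental values lie under the filter and were not shown to exceed background, so the size of these differences, and of the median that includes them, is uncertain. LRRN4 lay under the filter in both arrays. SMAD3, the direct measured neighbour of SMAD6, carries TGF-beta and activin signals and was 1.01 higher, while SMAD6 was lower. Around HAMP the 6 neighbours ran from -0.23 to 0.03, but only 3 of them passed the filter. Around BMP4 all 6 passed it, and they ran from -0.39 to 0.61. The difference of ID3, 0.99, was above those of its 6 neighbours, which ran from -1.48 to 0.88. The neighbours of BMP6 ran from -0.74 to 0.35, those of SMAD7 from -0.44 to 0.57, those of ID1 from -0.53 to 1.12 and those of ID2 from -0.42 to 0.36. Of 6 neighbours each, 6 passed the filter for BMP6, 4 for SMAD7, 4 for ID1 and 3 for ID2.

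Of 12 measured receptors and co-receptors, 9 passed the filter, 0 were higher and 0 lower by 2-fold or more, and the median was 0.01. Over all genes without a filter 3.36% were higher and 1.94% lower, and of genes over the filter 10.1% were past 2-fold. A count of 0 among 12 is near these shares. The type I receptor ACVR1 stood at 12.00 in knockout cells and 11.67 in parental cells, and the type II receptor BMPR2 at 10.83 in knockout cells and 10.70 in parental cells. BMPR1B, another type I receptor, stood at 7.17 in knockout cells and 7.99 in parental cells, and ACVR2A, a type II receptor, at 10.26 in knockout cells and 10.99 in parental cells. BAMBI, a pseudoreceptor that is itself induced by BMP and TGF-beta signals, stood at 13.57 in knockout cells and 12.76 in parental cells. BMPR1A was not analysed here.

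Of the inhibitory SMADs, SMAD6 had the larger difference. It blocks BMP type I receptors and competes with SMAD4 for SMAD1, and it is induced by BMP signals as a feedback inhibitor. It stood at 9.01 in knockout cells and 10.82 in parental cells, a difference of -1.81 or 3.52-fold lower. Of 1378 genes of like level, 12 were lower by as much, or 0.871%. SMAD7, which inhibits both the BMP and the TGF-beta branch, stood at 10.64 in knockout cells and 11.14 in parental cells, a difference of -0.50 that 14.2% of 1373 genes of like level reached. SMAD7 was the only member with a second cluster, which stood at 6.64 in knockout cells and 6.65 in parental cells, a difference of -0.02, so its clusters were not alike in this.

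Of 11 further genes measured among the signal-carrying SMADs and other regulators, 10 passed the filter, 0 were 2-fold higher or lower, and the median was 0.15. This count too is near the shares of all genes, 3.36% higher and 1.94% lower, and the 10.1% of genes over the filter. SMAD1 stood at 9.76 in knockout cells and 9.52 in parental cells, SMAD5 at 17.17 in knockout cells and 17.31 in parental cells, and SMAD9, which BMP signals also induce, at 7.48 in knockout cells and 7.87 in parental cells. The shared partner SMAD4 stood at 13.52 in knockout cells and 13.17 in parental cells. The ubiquitin ligase genes SMURF1 and SMURF2, whose products mark BMP SMADs and receptors for decay, were 0.15 and 0.19 higher.

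The ID genes code for helix-loop-helix proteins without a DNA-binding region, which bind and silence E proteins, and they are among the most direct BMP targets in many cells. ID1 stood at 14.27 in knockout cells and 13.99 in parental cells, a difference of 0.28 that 27% of 638 genes of like level reached. ID2 stood at 16.04 in knockout cells and 16.30 in parental cells, a difference of -0.25. ID3 stood at 12.98 in knockout cells and 11.99 in parental cells, a difference of 0.99 or 1.99-fold, just short of 2-fold, and 5.63% of 1066 genes of like level were higher by as much. The 3 genes thus did not shift by a common amount. ID4 stood at 6.31 in knockout cells and 6.38 in parental cells. Among 7 measured partners and targets of the ID proteins, 3 passed the filter and 0 were past 2-fold, a count too small to set against 10.1% of genes over the filter. The E protein gene TCF3 stood at 11.25 in knockout cells and 12.04 in parental cells, TCF12 at 13.15 in knockout cells and 13.10 in parental cells, and HES1, a repressor gene, at 11.84 in knockout cells and 12.42 in parental cells.

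Of 12 further BMP target genes, 9 passed the filter, 1 was higher and 0 were lower by 2-fold or more, near the same shares of all genes, and the median was -0.02. RUNX2, a bone transcription factor gene, was 1.04 higher with a parental value of 4.28, under the filter. ATOH8, a BMP-induced factor gene linked to HAMP transcription, stood at 6.53 in knockout cells and 5.66 in parental cells, and HEY1, a repressor gene shared with the Notch pathway, was at -0.94.

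HAMP was lower in knockout cells. Its cluster stood at 7.19 in knockout cells and 8.53 in parental cells, a difference of -1.34 or 2.53-fold. Of 1542 genes of like level, 37 were lower by as much, or 2.4%. The plot of difference against level sets these values among all genes.

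**Figure D3:**
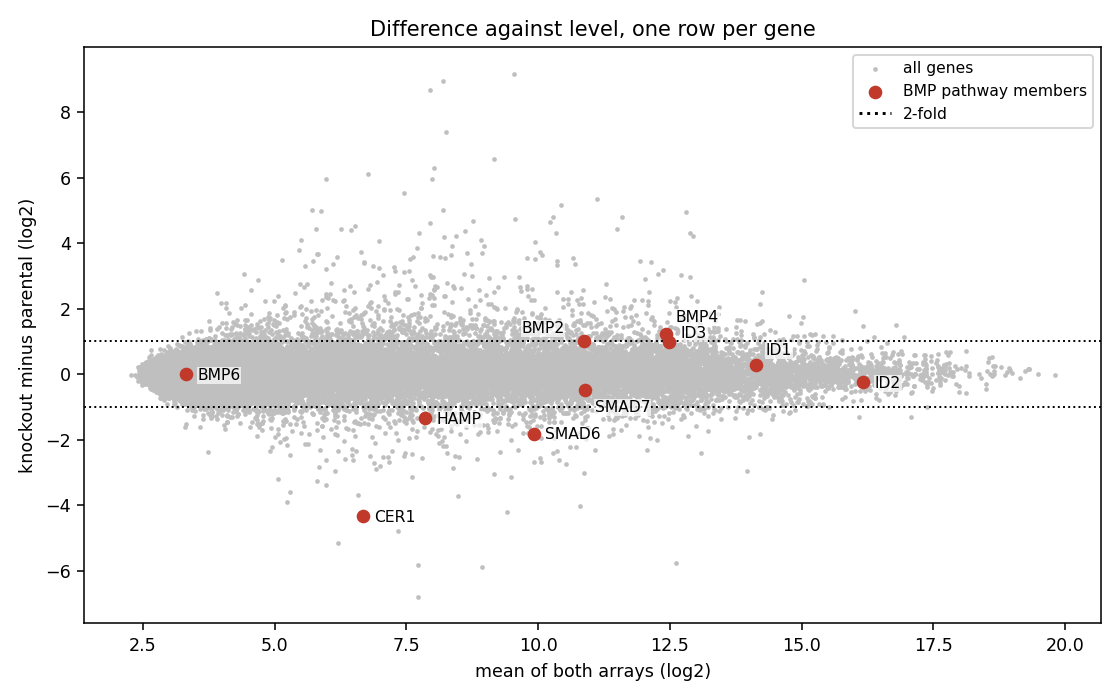
Difference, knockout minus parental on the log2 scale (vertical axis), against the mean of both arrays on the log2 scale (horizontal axis) for all 33616 genes (grey) and the 10 members (red, named); dotted lines mark 2-fold. CER1 at -4.33, SMAD6 at -1.81 and HAMP at -1.34 lie below the lower line, BMP4 at 1.24 and BMP2 at 1.02 above the upper one, and BMP6 lies at the dim end near 0.

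The 250 bases before the start site are shown for the 3 members that were at least 2-fold lower, and for ID3, which lay just under 2-fold higher, because these short stretches hold letters of known BMP and interleukin 6 response motifs in some of them and not in others. BMP4, which was 1.24 higher, has 3 start sites, and its stretches are not shown. Sequences are RefSeq promoters of GRCh38.p14 on the gene's strand, 5′ to 3′. They are HAMP at chr19:35282278-35282527 on the plus strand, SMAD6 at chr15:66701986-66702235 on the plus strand, CER1 at chr9:14722734-14722983 on the minus strand and ID3 at chr1:23559502-23559751 on the minus strand. Capitals mark GGCGCC (the core of the BMP-responsive element), CAGAC (the SMAD box, also as GTCTG on the other strand), TTCNNNGAA (the STAT motif) and GTCTAGAC (a palindromic SMAD element, searched after the sequences had been seen).
HAMP: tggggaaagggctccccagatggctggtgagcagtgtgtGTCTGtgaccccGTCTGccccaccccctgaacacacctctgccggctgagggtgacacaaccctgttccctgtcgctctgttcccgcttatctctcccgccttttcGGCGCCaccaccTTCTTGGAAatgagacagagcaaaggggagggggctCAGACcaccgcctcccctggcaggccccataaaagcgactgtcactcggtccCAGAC
SMAD6: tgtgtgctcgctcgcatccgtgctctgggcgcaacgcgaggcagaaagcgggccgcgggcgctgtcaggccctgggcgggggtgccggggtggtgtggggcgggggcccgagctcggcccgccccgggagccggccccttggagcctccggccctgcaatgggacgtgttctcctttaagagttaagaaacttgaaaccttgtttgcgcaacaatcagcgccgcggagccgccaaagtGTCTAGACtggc
CER1: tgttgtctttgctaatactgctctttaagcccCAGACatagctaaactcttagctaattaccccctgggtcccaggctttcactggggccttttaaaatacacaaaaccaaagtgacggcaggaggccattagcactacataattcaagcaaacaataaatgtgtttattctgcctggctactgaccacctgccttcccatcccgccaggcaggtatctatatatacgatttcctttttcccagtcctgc
ID3: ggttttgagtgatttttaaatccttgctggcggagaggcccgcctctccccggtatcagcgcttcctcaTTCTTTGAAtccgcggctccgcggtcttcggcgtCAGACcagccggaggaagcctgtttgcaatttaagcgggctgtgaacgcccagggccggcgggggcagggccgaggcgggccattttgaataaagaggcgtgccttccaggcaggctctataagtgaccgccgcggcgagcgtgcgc

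The HAMP stretch held GGCGCC from 105 to 100 bases before the start and, close after it, TTCTTGGAA as a STAT match from 93 to 85 bases before it, with 4 SMAD boxes. GGCGCC was found in 16.4% and TTCNNNGAA in 6.57% of all 35116 RefSeq promoter stretches of this length, on either strand, and no matches overlapped in HAMP. ID3 held TTCTTTGAA and 1 SMAD box, and CER1 1 SMAD box, a motif that 38% of all stretches hold. SMAD6 held GTCTAGAC from 12 to 5 bases before the start, as 0.182% of all stretches do. RefSeq promoters matched 9 of the 10 members with 13 start sites, BMP4 and SMAD7 having 3 each, and not BMP2. GGCGCC was present at 2 of the 13, of HAMP and BMP4. The SOX core letters ACAAAG and ACAATG, found in 13.7% and 9.29% of all stretches, were at 0 of the 13. This says only that these exact letters are not in these windows. Other forms of a SOX core were not searched, so the count does not show that such letters are missing. A match describes the letters and is neither a bound site nor a cause.

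Among genes that control hepcidin or handle iron, 15 of 18 further genes measured had differences above 0, beside 49.2% of all genes. That share covers all 33616 genes, dim ones included, and no share above 0 was taken for genes over the filter. Of these 18 genes, 16 passed the filter, and 2 were higher and 0 lower by 2-fold or more. Of protein-coding genes over the filter 8.26% were higher and 4.27% lower. The median of the 18 was 0.50, beside 0.00 over all genes and 0.04 over genes above the filter. HFE, whose loss causes iron overload with low hepcidin, stood at 8.23 in knockout cells and 5.97 in parental cells, a difference of 2.26 or 4.80-fold. CP, the ferroxidase ceruloplasmin that helps iron leave cells, stood at 12.98 in knockout cells and 11.30 in parental cells. The hemojuvelin gene HJV stood at 6.60 in knockout cells and 5.74 in parental cells, and TMPRSS6, the protease that cleaves hemojuvelin, at 6.49 in knockout cells and 6.35 in parental cells. SLC40A1, the gene of ferroportin, stood at 13.04 in knockout cells and 12.50 in parental cells, and the transferrin gene TF at 18.88 in knockout cells and 18.35 in parental cells. SLC39A8, a metal importer gene, was 0.98 higher. TFR2 lay under the filter at 4.65 in knockout cells and 4.75 in parental cells. ERFE, a hormone gene that lowers hepcidin by binding BMPs, stood at 4.54 in knockout cells and 5.18 in parental cells.

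On the interleukin 6 arm, 16 genes were measured, 10 passed the filter, and 2 were higher and 0 lower by 2-fold or more, with a median of 0.15. Over all genes 3.36% were higher and 1.94% lower, and of the protein-coding genes over the filter 8.26% were higher and 4.27% lower. STAT3, which carries the signal to HAMP, stood at 12.17 in knockout cells and 10.97 in parental cells, a difference of 1.20. PIAS3, an inhibitor of STAT3, stood at 9.81 in knockout cells and 8.41 in parental cells. The shared receptor chain gene IL6ST was 0.69 higher and the kinase gene JAK2 was at -0.62. SOCS3 and CRP, both induced by this route in hepatocytes, lay under the filter, SOCS3 at 2.85 in knockout cells and 3.05 in parental cells and CRP at 3.70 in knockout cells and 3.16 in parental cells. The fibrinogen chain gene FGA, another acute-phase gene, was at -0.55.

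Nodal, the other ligand CER1 is known to block, lay under the filter at 3.41 in knockout cells and 3.29 in parental cells, as did LEFTY1, LEFTY2 and the nuclear partner FOXH1 in both arrays. Of 11 further genes on that list, 4 passed the filter and 1 was at least 2-fold higher, SMAD3, which stood at 12.38 in knockout cells and 11.36 in parental cells, beside 3.36% of all genes. SMAD3 lay at the 2-fold line, and under quantile normalization or with the level trend removed 0 genes of the list were 2-fold higher. The type I receptor gene ACVR1B was 0.79 higher and SMAD2 was 0.26 higher.

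**Figure D4:**
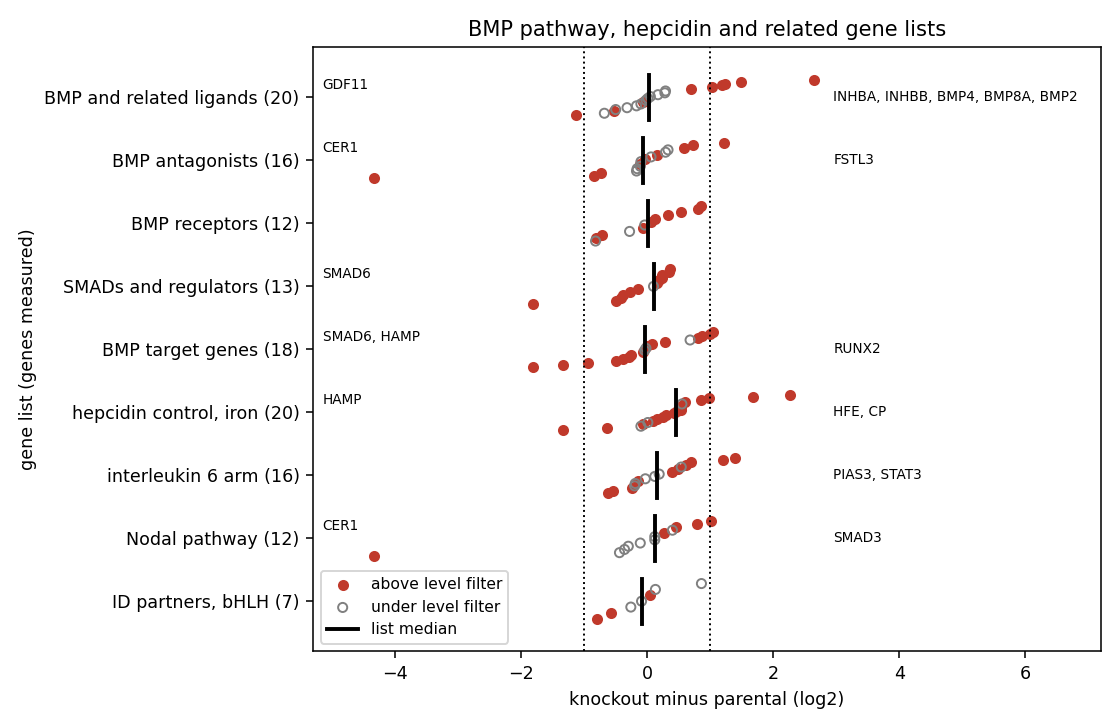
Differences, knockout minus parental on the log2 scale (horizontal axis), of every measured gene of 9 lists (vertical axis, number measured in brackets; within a list, genes are spread upwards in order of difference); filled points passed the level filter, open points did not, black bars are list medians over all measured genes, dotted lines mark 2-fold, and genes past it are named at the margins. The ligand list has 5 genes past 2-fold at right, the receptor list has none, and CER1 lies far to the left of every other gene shown.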

How the data were processed

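Expression was measured in total RNA of SOX4 knockout and parental Hep3B cells, on 1 array each. The authors deposited log2 values. The submitters' processing notes name RMA and the Transcriptome Analysis Console, without versions or a genome build; base 2 is what RMA writes. Array depth has no count, and no detection calls were at hand.

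Names came from the platform annotation, which gives 1 symbol to 36176 of 135750 clusters, several to 1119 and none to 98455; genes were not named from clusters with several. Of the 36176, 25516 matched RefSeq (GRCh38.p14) by Entrez identifier, changing 0 symbols, and RefSeq served for gene order and promoters. Each gene kept its cluster with the highest mean, and a gene counted as apart from 2-fold on. Among the list genes named, GREM1 had 4 clusters and SLC39A8 and JAK2 had 2 each, and the values of their other clusters are not given. By rule, the text names members, their neighbours, and in each list the 4 largest absolute differences plus both extremes of level above the filter, though not every gene allowed is printed. The rule's nearest pairs of values are not given, because levels of different clusters are not comparable. ALB, PTPRC, GDF11, FST, NOG, CHRD, ACVR1, BMPR2, SMAD1, SMAD4, SMURF1, SMURF2, ID4, ATOH8, TMPRSS6, SLC40A1, TFR2, SOCS3, CRP, NODAL, LEFTY1, LEFTY2 and FOXH1 were picked outside it, after their values were seen. Members, lists and rules were chosen with earlier results of these data known. Alternatives were quantile normalization, centring, removal of the level trend (running median over 501 genes), other cluster choices, other filters and 1.5-fold. Counting was tested on simulated data. Python 3.11.15, pandas 2.3.3 and NumPy 2.4.6 were used.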

Additional observations from a re-analysis of the deposited data

How the results depend on the processing

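Under quantile normalization, centring, removal of the level trend and averaging of clusters, no member difference changed sign and the largest move was 0.24, for SMAD7. SMAD7 stood at -0.02 on its second cluster, since that cluster is another row of the array. BMP2, between 0.96 and 1.05, and ID3, between 0.93 and 1.02, lie at the 2-fold line, so the count of members at least 2-fold higher was 1 under quantile normalization and with the level trend removed, but 3 with centred arrays. CER1 ran from -4.41 to -4.30, SMAD6 from -1.87 to -1.78 and HAMP from -1.39 to -1.31. A move was counted when it passed 0.30 for a gene (the SD of differences under the filter, in place of a replicate spread), 0.1 for a list median or 1.5 times for a count.

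The stricter filter (8.55, the 75th percentile) tests fewer genes and left 643 higher and 332 lower; 1.5-fold gave 2605 higher and 1882 lower. Medians over members above the level filter were 1.02 for ligands, 0.13 for receptors, 0.00 for SMADs, 0.44 for the interleukin 6 arm, 0.46 for the Nodal pathway and -0.58 for ID partners. Over the stricter filter they were 1.13 for ligands, -2.18 for antagonists, 0.23 for receptors, 0.50 for the interleukin 6 arm, 0.26 for the Nodal pathway and -0.58 for ID partners. The antagonist median rests on CER1 at -4.33 and CRIM1 at -0.04 alone and lies midway between them. The median of the ID partners rests on 3 genes. Members chosen by level had to be those with larger values, so these medians support nothing. At that filter, the counts of list members were 0 ligands lower, 0 antagonists higher, 0 BMP targets higher and 1 lower, and 1 hepcidin gene higher and 0 lower. HAMP itself, with a higher value of 8.53 in parental cells, fell just under the stricter filter. The count of members at least 2-fold lower was therefore 2 there, in place of 3. With centred arrays 2 BMP targets were higher, and under quantile normalization or with the trend removed 0 Nodal pathway genes were. At 1.5-fold the higher and lower counts became 3 and 3 for antagonists, 2 and 3 for receptors, 5 and 2 for hepcidin genes, 4 and 1 for the interleukin 6 arm and 1 and 1 for ID partners, with 2 ligands lower, 5 BMP targets higher and 2 Nodal genes higher. No paired analysis was possible because there is 1 array per genotype, and none could be left out. Without detection calls, signal over background could not be bounded.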
